A study of Mus musculus with 4 samples.

Results

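Among receptors for neuropeptides, 10 genes for 3 groups of inhibitory neuropeptides were examined in the hippocampus of Lsd1 knock-in mice. They are 3 receptors for neuropeptide Y (Npy1r, Npy2r and Npy5r), 4 for somatostatin (Sstr1, Sstr2, Sstr3 and Sstr4) and 3 of the opioid family (Oprm1, Oprk1 and Oprl1), chosen by name among 26328 genes listed in at least 1 sample. RNA-seq was performed on poly(A) RNA of hippocampal tissue from 2 wild-type (WT) and 2 LSD1 knock-in (KI) mice. All were C57BL/6 males with no treatment given in the labels, and the KI mice carry an Lsd1 allele in which the serine phosphorylated by PKCα is replaced by alanine. An age of 8 to 15 weeks is given for the littermates used in behavior, and no separate age is given for the RNA-seq mice. The labels do not say how many animals gave each sample, so the p-values measure the spread between these samples only.

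Neuropeptide Y and somatostatin are released mainly by interneurons of the hippocampus, and the opioid peptide dynorphin along the mossy fibers. The receptors for these and the other opioid peptides couple to Gi/o proteins. These proteins lower cyclic AMP, open GIRK potassium channels and close presynaptic calcium channels, and so dampen transmitter release and excitability. The postsynaptic Y1 receptor is known from dentate granule cells, the Y2 receptor from presynaptic terminals, SSTR4 from CA1 pyramidal cells and SSTR3 from neuronal primary cilia.

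Expression is given as RPKM, reads divided by exon length in kb and by the sample's mapped reads, so levels can be compared between genes. Depth, worked out from the files, was near 13410000 and 8830000 mapped reads for WT replicates 1 and 2, and near 14380000 and 14950000 for KI replicates 1 and 2. A gene of 2 kb with 1 read then has 0.0334 RPKM in the deepest library and 0.0566 RPKM in the shallowest. KI and WT were compared by limma on log2(RPKM + 1) across 18436 genes that reached 0.5 RPKM in 2 or more samples, and a gene passed when its Benjamini-Hochberg adjusted p was below 0.1 and its change 1.2-fold or more. Of all genes tested, 0 (0%) passed, while 1774 (9.62%) had an unadjusted limma p under 0.05. The study's own count test, edgeR, did report differentially expressed genes between KI and WT, so the 0 describes this limma test only. Kdm1a, which encodes LSD1, was at 11.6 and 11.2 RPKM in WT and 10.97 and 11.2 RPKM in KI, which does not test a single-residue replacement.

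Some marker genes differed between the libraries. Beside them, 42.2% of all genes tested had groups that did not overlap, 24.0% with KI above and 18.1% with KI below. Among 6 excitatory neuron markers of the hippocampus, 3 were lower in both KI samples, Prox1 and Dsp, both known from dentate granule cells, and Slc17a7, the vesicular glutamate transporter VGLUT1. The other members, Neurod6, Wfs1 and Grik4, had overlapping groups. The list's summed RPKM was 603 and 610 in WT and 577 and 581 in KI, most of it from Slc17a7 at 406 and 415 RPKM in WT and 391 and 386 RPKM in KI. Among 12 markers of neocortex, thalamus and striatum, 8 were higher in both KI samples and 2 lower, and their summed RPKM was 61.8 and 62.3 in WT and 74.7 and 70.9 in KI. The choroid plexus gene Ttr was at 51.3 RPKM in KI replicate 1 against 8.13 to 13.8 RPKM in the other samples. Microglia markers summed to between 54.2 and 54.6 RPKM in WT and between 52.8 and 57.4 RPKM in KI, with 3 of the 5 higher in both KI samples and 1, P2ry12, lower in both. Endothelium markers summed to between 46.7 and 53.4 RPKM in WT and between 56.5 and 63.4 RPKM in KI. No marker of these lists was at 0 in any sample, and 0 of the tested markers passed in limma. Within the hippocampal, endothelium, microglia and choroid plexus lists, the largest log2 fold changes were -0.61 and -0.52 for Dsp and Prox1, 0.43 and 0.30 for Ly6c1 and Pecam1 of endothelium, 0.30 for both Aif1 and Tmem119 of microglia, where P2ry12 had -0.29, and 0.97 and 0.39 for Ttr and Kl of choroid plexus.

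All 10 receptors were listed in all 4 samples, and 8 entered the limma comparison. The mean over the 4 samples ran from 0.0670 RPKM for Oprm1 to 20.6 RPKM for Sstr4, a range of 308-fold. Sstr4 came first, above 82.5% of the genes tested, followed by Npy2r at 14.4 RPKM, Npy1r at 10.2, Sstr3 at 10.2, Oprl1 at 9.18, Sstr2 at 4.58, Sstr1 at 4.13 and Npy5r at 2.63 RPKM. Oprk1 at 0.127 RPKM and Oprm1 at 0.0670 RPKM were far below the others and under the limit of 0.5 RPKM. The 4 values of neighbors in this order overlapped for Npy1r and Sstr3, for Sstr2 and Sstr1, and for Oprk1 and Oprm1, and were apart for every other pair of neighbors. The mu and kappa receptor genes were thus barely detected beside the nociceptin receptor Oprl1.

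**Figure D1:**
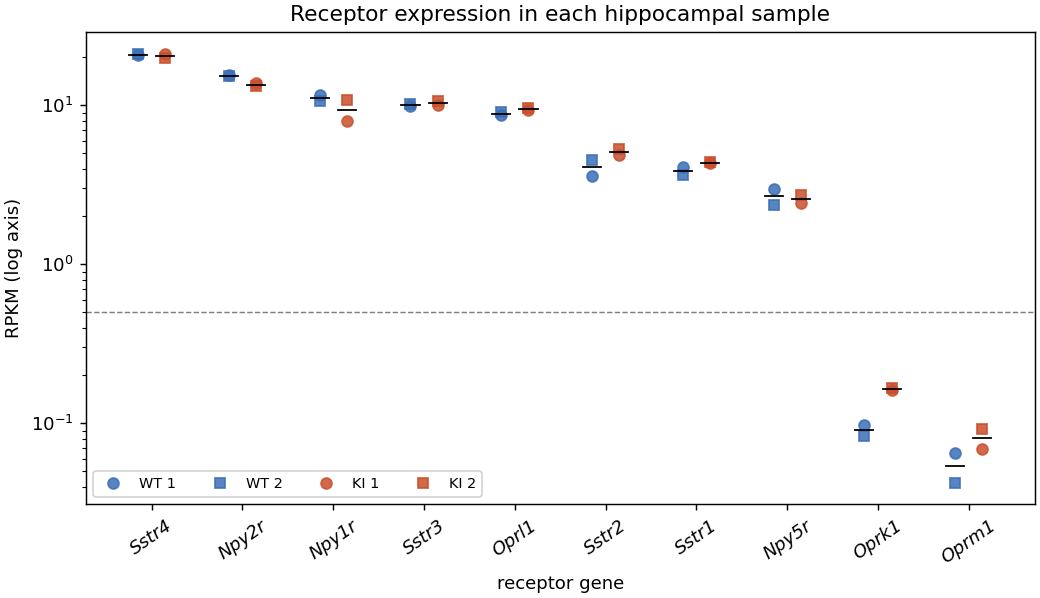
RPKM of the 10 receptor genes on a log axis, ordered by mean level. Points are single samples (circle replicate 1, square replicate 2), short lines are group means of 2 samples, and the dashed line is the limit of 0.5 RPKM for testing. Sstr4 stands highest near 20.6 RPKM and only Oprk1 and Oprm1 lie below the dashed line.

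In the comparison of KI with WT, 0 of the 8 tested receptors passed the test in limma. An unadjusted limma p under 0.05 was seen for 1 of the 8, Npy2r, beside 9.62% of all genes tested, so this count is close to that background. The log2 fold changes ran from -0.25 for Npy1r to 0.27 for Sstr2, with a median of 0.01, and the median over all genes tested was 0.01. The 3 NPY receptors all had values below 0, and Oprl1 and 3 of the 4 somatostatin receptors had values above 0. Both KI samples exceeded both WT samples in 3 of the 8, Sstr1, Sstr2 and Oprl1, and were below both in 1, Npy2r. Of all genes tested, 42.2% had groups that did not overlap, 24.0% with KI above and 18.1% with KI below, so 4 of 8 is close to that background. With no filter on low values, Oprk1 and Oprm1 also had both KI values higher, which made 6 of 10 against 37.1% of all 26328 genes listed. With 2 samples per group an exact two-sided permutation test cannot give a p below 0.333.

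**Figure D2:**
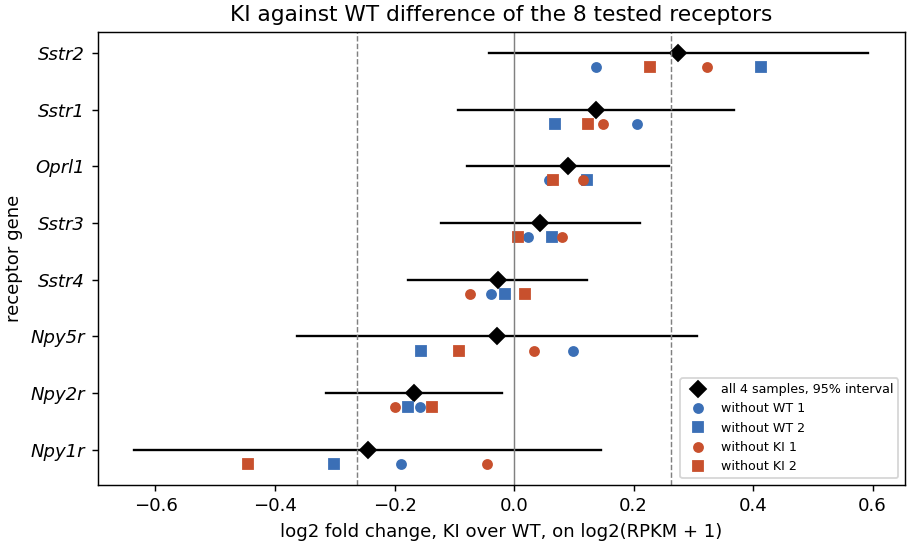
log2 fold change of KI over WT on log2(RPKM + 1) for the 8 tested receptors. Diamonds and bars are the limma estimate with its 95% interval over all 4 samples, colored points are the estimates with 1 sample left out, and dashed lines mark 1.2-fold. In this fit the interval of Npy2r alone leaves out 0, and Npy1r moves from -0.05 without KI replicate 1 to -0.44 without KI replicate 2.

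Npy1r (ENSMUSG00000036437, chromosome 8, 66697192 to 66706792 in GRCm38, plus strand) encodes the Y1 receptor, the main postsynaptic receptor for NPY. WT replicates 1 and 2 had 11.6 and 10.7 RPKM, on 468 and 283 reads, and KI replicates 1 and 2 had 7.91 and 10.7 RPKM, on 342 and 483 reads. KI replicate 1 was low and KI replicate 2 lay between the WT samples, so the groups overlapped. The WT mean was 11.1 ± 0.67 and the KI mean 9.33 ± 2.01 RPKM (SD, n = 2 each), with a log2 fold change of -0.25 (standard error 0.15, adjusted p = 0.641 from limma). Without KI replicate 1 the log2 fold change was -0.05, and with all samples the 95% interval ran from -0.64 to 0.15. After median-ratio scaling of the samples, KI replicate 2 was at 10.63 against 10.66 RPKM in WT replicate 2, and the groups then no longer overlapped.

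Npy2r (ENSMUSG00000028004, chromosome 3, 82538383 to 82548084, minus strand) encodes the Y2 receptor, the presynaptic autoreceptor that restrains release. It was at 15.4 and 15.2 RPKM in WT replicates 1 and 2 and at 13.8 and 13.2 RPKM in KI replicates 1 and 2. Both KI samples were below both WT samples, on 699, 453, 672 and 667 reads. The group means were 15.3 ± 0.17 and 13.5 ± 0.44 RPKM (SD, n = 2 each), a KI mean 11.7% below that of WT. On the log2 scale KI differed by -0.17 (standard error 0.06), with a limma p of 0.034 that was 0.490 once adjusted. It lay between -0.20 and -0.14 as each sample was left out. The unadjusted limma p of Npy2r was 0.062 without the mean-variance trend and 0.064 with the replicate number as a block.

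Npy5r (ENSMUSG00000044014, chromosome 8, 66679965 to 66688128, minus strand) encodes the Y5 receptor and lies head to head with Npy1r, with 9063 bases between them. It was at 2.996 and 2.35 RPKM in WT and 2.43 and 2.75 RPKM in KI, replicates 1 and 2. The WT samples thus enclosed both KI samples. The log2 fold change was -0.03 (95% interval -0.36 to 0.31, adjusted p = 0.967 from limma). In KI replicate 1, where Npy1r was at 71.0% of its WT mean, the neighboring Npy5r was at 91.1%.

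The ligand gene Npy was at 80.5 and 79.7 RPKM in WT replicates 1 and 2 and at 48.6 and 62.2 RPKM in KI replicates 1 and 2. Both KI values were below both WT values, with a log2 fold change of -0.53 (standard error 0.12, adjusted p = 0.399 from limma). The log2 fold change of Npy was -0.36 without KI replicate 1 and -0.71 without KI replicate 2. In limma-voom on the reads worked out from the RPKM, an alternative chosen after the data were seen, Npy passed with a log2 fold change of -0.54 and an adjusted p of 0.020, as did 1.66% of the genes in that fit. Prox1 was at 17.3 and 16.9 RPKM in WT and 10.2 and 13.1 RPKM in KI, and Dsp at 10.01 and 9.73 RPKM in WT and 5.03 and 7.46 RPKM in KI. Npy, Npy1r, Prox1 and Dsp were all lowest in KI replicate 1, at 60.8%, 71.0%, 59.7% and 50.9% of their WT means. In KI replicate 2 they were at 77.6%, 96.5%, 76.8% and 75.6%, so that only Npy1r was back among its WT values of 95.8% and 104%. Npy2r had the other order, with 90.4% in KI replicate 1 and 86.3% in KI replicate 2. The ligand gene Cort was also lowest in KI replicate 1, at 42.45%. Of the other hippocampal markers, Wfs1 was lowest in KI replicate 1, at 68.5%, and was at 122% in KI replicate 2. Neurod6 and Grik4 were highest in KI replicate 1, at 111% and 109%. Slc17a7 was at 95.4% and 94.1% in KI replicates 1 and 2. The part of the hippocampal marker genes in the NPY receptor values was not tested. In tissue RNA, fewer cells of a type and less RNA per cell cannot be told apart. Pyy, the gene of peptide YY, and the receptor gene Npy4r were listed in no sample, and Npy6r had 1 read in WT replicate 2 and 0 in the other samples.

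**Figure D3:**
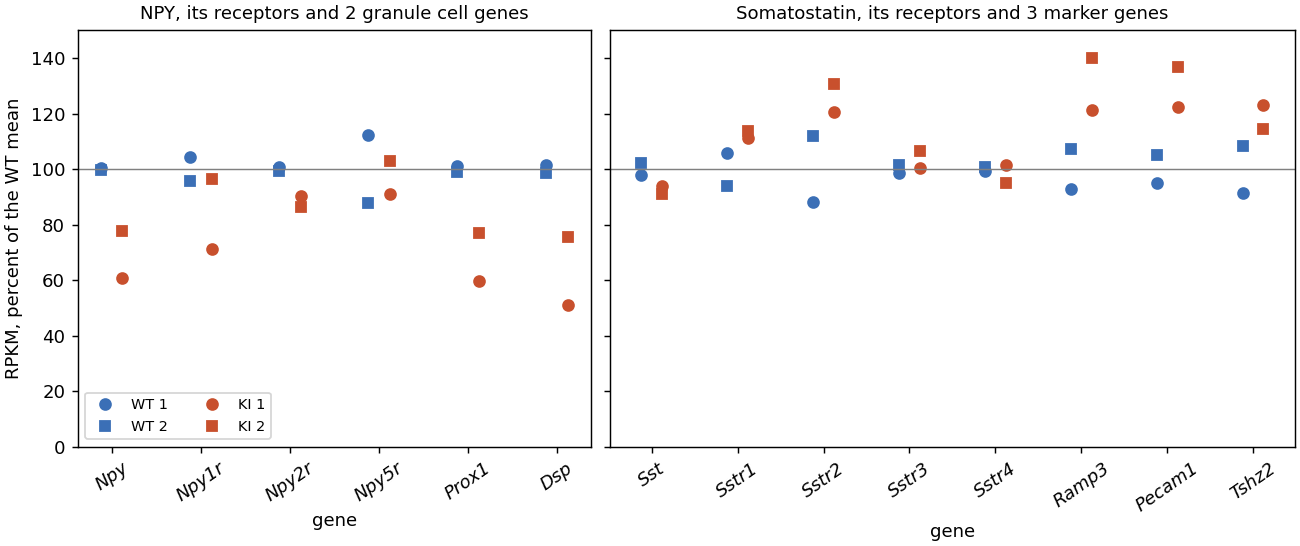
RPKM of each sample as a percent of the WT mean, for NPY, its receptors and the granule cell genes Prox1 and Dsp (left), and for somatostatin, its receptors and 3 marker genes (right). Points are single samples. Npy, Npy1r, Prox1 and Dsp are lowest in KI replicate 1, at 50.9% to 71.0%, while Sstr2 reaches 131% in KI replicate 2.

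Sstr2 (ENSMUSG00000047904, chromosome 11, 113619342 to 113626028, plus strand) encodes a widely expressed somatostatin receptor that internalizes on agonist binding. With all 4 samples it had the largest log2 fold change in absolute size of the 8 tested receptors, a rank it lost to Sstr1 without WT replicate 1 and to Npy1r without KI replicate 2. WT replicates 1 and 2 had 3.58 and 4.55 RPKM, on 103 and 86 reads, and KI replicates 1 and 2 had 4.90 and 5.31 RPKM, on 151 and 170 reads. Both KI values were above both WT values, but the WT samples lay further apart than WT replicate 2 from either KI sample. The means were 4.06 ± 0.68 and 5.10 ± 0.29 RPKM (SD, n = 2 each), a ratio of 1.26, with a log2 fold change of 0.27 (standard error 0.12, adjusted p = 0.551 from limma). It was 0.14 without WT replicate 1 and 0.41 without WT replicate 2. The unadjusted limma p of Sstr2 was 0.076 as reported, 0.094 with no filter on low values and 0.049 with at least 10 reads in every sample. It was 0.029 with the replicate block and at least 10 reads together, and 0.030 in limma-voom. Once adjusted, the limma p was 0.457 with at least 10 reads, 0.403 with the block added and 0.354 in limma-voom. Sstr2 lies within an intron of Slc39a11 on the opposite strand, with no shared exon.

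The 250 bases before the RefSeq start site of Sstr2 are shown for the tested receptor with the largest fold change over all 4 samples, and those before Npy2r for the receptor with the most reads (RefSeq, GRCm38.p6, 5′ to 3′ on the strand of the gene). Capitals mark a cyclic AMP response element, TGACGTCA, the palindrome bound by CREB.
Sstr2, chr11:113619077-113619326, plus strand: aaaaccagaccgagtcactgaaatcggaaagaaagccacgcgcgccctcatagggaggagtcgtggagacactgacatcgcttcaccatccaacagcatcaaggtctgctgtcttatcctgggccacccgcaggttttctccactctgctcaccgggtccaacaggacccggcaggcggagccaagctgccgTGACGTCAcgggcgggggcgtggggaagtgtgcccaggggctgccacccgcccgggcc
Npy2r, chr3:82548086-82548335, minus strand: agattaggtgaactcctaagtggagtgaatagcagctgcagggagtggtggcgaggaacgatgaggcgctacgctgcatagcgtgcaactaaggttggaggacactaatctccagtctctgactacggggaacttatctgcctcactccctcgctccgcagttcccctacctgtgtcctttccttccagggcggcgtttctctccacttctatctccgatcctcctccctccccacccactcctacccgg

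The element in Sstr2 begins at position -58 from the start site, in a stretch with a GC content of 63.6% and 18 CpG dinucleotides, against 56.8% and 12 for Npy2r. It was found in 1.79% of all 32851 promoter windows of 300 bases. The E-box CACGTG, the element of CLOCK:BMAL1, was found on either strand in the windows of Npy5r and Sstr3 and in 7.15% of all windows. These short stretches are added because they hold it, with the E-box in capitals.
Npy5r, chr8:66688117-66688146, minus strand: ctcagggactgtCACGTGttcccgaggctc
Sstr3, chr15:78544359-78544388, minus strand: tccggcaccctcCACGTGtcctggagatgg

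The left and right parts of the REST element RE1, searched on both strands as TTCAGCACC and GGACAGCGC, were found in no window of these receptors and in 0.371% and 0.405% of all windows. Windows were present for Npy1r, Npy2r, Npy5r, Sstr2, Sstr3, Sstr4, Oprm1 and Oprl1. A match is a string of letters and was not tested as a binding site. Of the 3 receptors with a match, Sstr2 had groups that did not overlap, and Npy5r and Sstr3 had groups that did.

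Sstr1 (ENSMUSG00000035431, chromosome 12, 58211772 to 58214444) was at 4.12 and 3.65 RPKM in WT and 4.32 and 4.41 RPKM in KI, replicates 1 and 2. Both KI values were above both WT values, closely so for WT replicate 1. This gave a log2 fold change of 0.14 (standard error 0.09, limma adjusted p = 0.660). It was 0.205 without WT replicate 1 and 0.068 without WT replicate 2.

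Sstr3 (ENSMUSG00000044933, chromosome 15, 78537008 to 78544685), the receptor of primary cilia, was at 9.87 and 10.2 RPKM in WT and 10.1 and 10.7 RPKM in KI. The groups overlapped, and the log2 fold change was 0.04 (95% interval -0.12 to 0.21, adjusted p = 0.863 from limma), from 0.0065 to 0.081 as each sample was left out. Sstr4 (ENSMUSG00000037014, chromosome 2, 148395344 to 148396767), annotated in GENCODE M21 as a single exon of 1424 bases, was at 20.6 and 21.0 RPKM in WT and 21.1 and 19.7 RPKM in KI (407 to 666 reads). These reads rest on a length of 2195 bases, the one that gave whole reads, so the gene model behind the values differs from that annotation. The log2 fold change of Sstr4, -0.03, had a 95% interval from -0.18 to 0.12 in limma, which leaves out a change of 1.2-fold in either direction on this scale. Sstr5, which is not among the 10, had 2, 3, 7 and 7 reads in WT replicates 1 and 2 and KI replicates 1 and 2 and was not tested.

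The ligand gene Sst was the most abundant of the 8 ligand genes of these receptors, at 243 and 254 RPKM in WT and 233 and 226 RPKM in KI. Both KI values were below both WT values, with a log2 fold change of -0.11 (standard error 0.05, adjusted p = 0.552 from limma). Cort, whose product cortistatin also binds these receptors, was at 3.52 and 5.19 RPKM in WT and 1.85 and 3.66 RPKM in KI, on 18 to 37 reads, with overlapping groups.

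Summed over the family, the somatostatin receptors were at 38.2 and 39.4 RPKM in WT and 40.4 and 40.1 RPKM in KI, and the NPY receptors at 30.0 and 28.2 RPKM in WT and 24.2 and 26.7 RPKM in KI. The KI sums were thus above WT for the first and below WT for the second, with ratios of means of 1.04 and 0.874. Within these families, Sstr3, Sstr4, Npy1r and Npy5r had overlapping groups. Among single genes tested, 24.0% had both KI values above WT and 18.1% both below, and no such share was worked out for sums. As a log2 ratio the NPY receptor sum was -0.19, with -0.12 without KI replicate 1 and -0.27 without KI replicate 2. The log2 ratio of the somatostatin receptor sum was 0.053, and it ran from 0.032 without WT replicate 1 to 0.075 without WT replicate 2. Sstr4 made up between 49.2% and 54.0% of the somatostatin receptor RPKM in each sample, and Npy2r between 49.4% and 57.2% of the NPY receptor RPKM. The share of Sstr2 was 9.38% and 11.5% in WT and 12.1% and 13.2% in KI. The lower NPY receptor sum in KI replicate 1 came with the share of Npy1r at 32.7%, against 37.8% to 40.3% in the other samples.

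**Figure D4:**
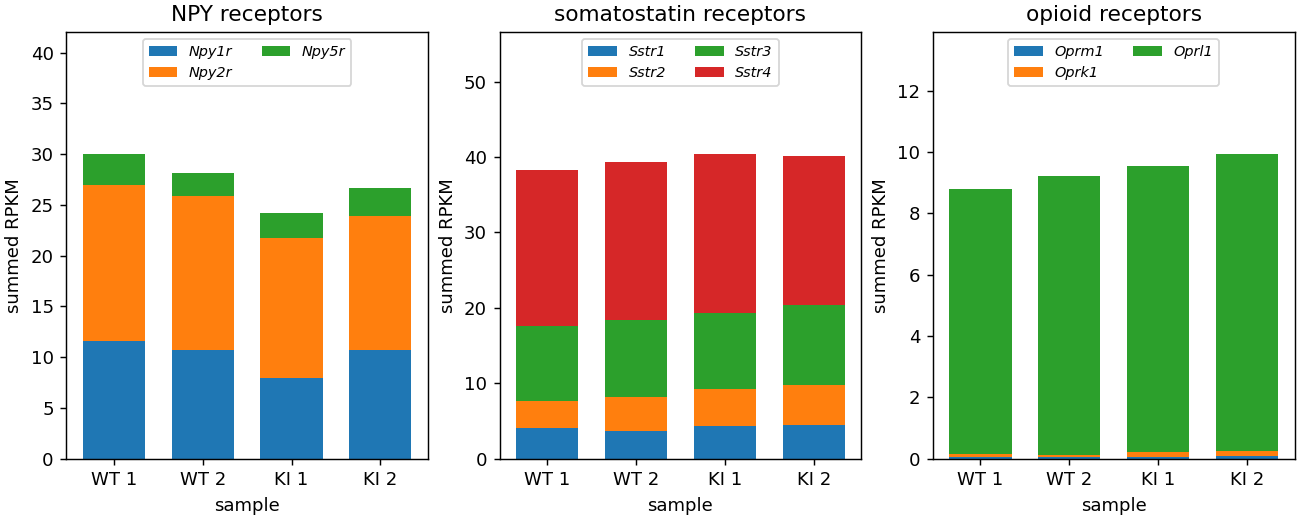
Summed RPKM of the NPY, somatostatin and opioid receptors in each of the 4 samples, stacked by gene, with a separate linear axis from 0 for each family. Npy2r and Sstr4 form the largest block of their families in every sample, and Oprl1 forms at least 97.4% of the summed RPKM of Oprl1, Oprk1 and Oprm1. The delta receptor gene Oprd1 is not part of the opioid sum.

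Oprl1 (ENSMUSG00000027584, chromosome 2, 181715016 to 181720985), the receptor of nociceptin, was at 8.64 and 9.09 RPKM in WT and 9.32 and 9.68 RPKM in KI, replicates 1 and 2. Both KI values were above both WT values, on 435, 301, 503 and 543 reads. The means of 8.86 ± 0.31 and 9.50 ± 0.25 RPKM (SD, n = 2 each) gave a log2 fold change of 0.09 (standard error 0.06, adjusted p = 0.690 from limma), from 0.058 to 0.123 as each sample was left out. The gene of its ligand, Pnoc, was at 4.22 and 3.57 RPKM in WT and 3.90 and 3.57 RPKM in KI, with overlapping groups.

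Oprk1 (ENSMUSG00000025905, chromosome 1, 5588466 to 5606131) encodes the kappa receptor for dynorphin. It was at 0.0981 and 0.0828 RPKM in WT and 0.163 and 0.166 RPKM in KI, on 9, 5, 16 and 17 reads by the shorter of 2 exon lengths that give whole reads. Both KI values were above both WT values. The pooled reads per mapped read were 1.79 times higher in KI, with an exact 95% counting interval from 0.931 to 3.62. The longer length, 13682 bases, is a whole multiple of the shorter, 6841 bases, so it gives whole reads whenever the shorter does. By it the reads would be 18, 10, 32 and 34 and the interval 1.13 to 2.89. That narrower interval comes from multiplying the same reads and adds no separate information. The length used for the deposited values was not stated. Oprm1 (ENSMUSG00000000766, chromosome 10, 6758506 to 7038198) encodes the mu receptor and had 7, 3, 8 and 11 reads. Its KI values of 0.0692 and 0.0916 RPKM were above the WT values of 0.0649 and 0.0423 RPKM, and the pooled ratio was 1.44 with a counting interval from 0.637 to 3.47. These intervals cover counting error only. Oprm1 shares 96 exon bases with Ipcef1 on the opposite strand, which was at 3.18 to 3.38 RPKM, and without strand in the counting the reads there cannot be told apart.

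Of the other opioid genes, Oprd1, the delta receptor, was at 4.13 and 4.70 RPKM in WT and 3.53 and 3.93 RPKM in KI, both KI values below both WT values (log2 fold change -0.20, adjusted p = 0.584 from limma). Oprd1 was thus far above the mu and kappa receptor genes in these samples, and with it in the sum Oprl1 made up between 65.3% and 71.3% of the opioid receptor RPKM. Pdyn, the dynorphin precursor, was at 4.03 and 3.73 RPKM in WT and 4.62 and 4.26 RPKM in KI, with both KI values higher (log2 fold change 0.16, adjusted p = 0.608 from limma). Penk, the enkephalin precursor, was at 21.9 and 20.9 RPKM in WT and 23.4 and 20.5 RPKM in KI. Pomc rested on 6 to 10 reads in each sample.

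Of the 8 ligand and 4 additional receptor genes, 8 were tested, 0 passed in limma, and their median log2 fold change was -0.08 against 0.01 over all genes. Of the 9 Gi/o protein and GIRK channel genes, 8 were tested and 0 passed, with a median of 0.01. The largest values of that list were -0.24 for Kcnj6, a GIRK channel subunit, at 9.24 and 7.88 RPKM in WT and 7.11 and 7.05 RPKM in KI, and 0.09 for Gnao1, the Go alpha subunit. Of the 9 genes of receptor desensitisation, 9 were tested and 0 passed, with a median of 0.03. Arrb2, a beta-arrestin, had a log2 fold change of -0.14 and Grk6, a receptor kinase, of 0.14. Of the 9 interneuron markers, 0 passed, 3 had an unadjusted limma p under 0.05, all higher in KI, and the median was 0.03. Among them Pvalb was at 15.5 and 16.0 RPKM in WT and 21.2 and 19.1 RPKM in KI, and Vip at 8.49 and 8.23 RPKM in WT and 11.5 and 9.59 RPKM in KI. Gad1 and Gad2, the GABA synthesis genes, had overlapping groups.

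Likeness to Sstr2 was measured as the root mean square difference of log2(RPKM + 1), each gene centered on its mean, over the 4 samples. Of 69 genes of the lists, the nearest were Ramp3 at 0.058, Pecam1 at 0.060 and Tshz2 at 0.074. The difference was not scaled and was not worked out over all genes tested. How many other genes lie as near to Sstr2 is therefore not known. Ramp3 and Tshz2 come from the list of neocortex, thalamus and striatum markers and Pecam1 from the endothelium list. Ramp3 was at 1.35 and 1.56 RPKM in WT and 1.76 and 2.04 RPKM in KI, on 25, 19, 35 and 42 reads. As for Sstr2, WT replicate 1 was lowest and KI replicate 2 highest. Tshz2 was highest in KI replicate 1, at 11.3 RPKM against 10.6 RPKM in KI replicate 2. The part of these markers in the value of Sstr2 was not tested.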

How the data were processed

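The authors isolated poly(A) RNA from hippocampus, sequenced read pairs, aligned them to mm10 with GSNAP and kept uniquely and properly mapped pairs. The deposited values are RPKM per gene of Ensembl release 74, 1 file per sample, with no further scaling stated; the counting tool is not given in the sources used here. A gene not listed in a sample was given 0. Genes were named and placed with GENCODE M21 (GRCm38, the build of mm10), and 25729 of 26328 IDs matched. Since RPKM are not counts, the count test of the study was not run, and limma 3.58.1 (R 4.3.3) with a mean-variance trend was used on log2(RPKM + 1). The fit was also run on simulated data with an assumed spread, which does not show how it performs on these samples.

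RPKM rise in whole-read steps, which gave each sample's mapped reads. With GENCODE exon lengths, 60.5% of 25729 genes had whole reads in all 4 samples within 0.002 reads. For Npy1r, Npy5r, Sstr3, Sstr4 and Oprk1 the exon length nearest to GENCODE that gave whole reads was taken, which for Oprk1 was the shorter of 2. Whether a read or a read pair was counted is not stated.

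The receptors, lists and tests were chosen with earlier results of these data known. The text names all 10 receptors, their ligands and family receptors, of other lists the genes past the threshold or else the 2 with the largest change, the 3 genes most like the tested receptor with the largest change, and marker genes that moved with a result. Some genes that this rule names are not reported here. Samples sharing a replicate number did not deviate together (Pearson r = -0.025 across 18436 genes, which are not independent). Python 3.11.15 with pandas 2.3.3 was used for other steps. Protein sequences were not used here.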

Additional observations from a re-analysis of the deposited data

How the results depend on the processing

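The count of receptors past the threshold was 0 in the comparison as reported and in all 15 alternatives, which included the replicate block (0 receptors, smallest adjusted p 0.597 from limma), and ranged from 0 to 0 with 1 sample left out. The smallest adjusted p of any receptor ran from 0.337 to 0.703 over the alternatives. The ligand and family receptor count was 0 throughout, and from 0 to 0 with 1 sample left out, except that limma-voom on whole reads, added after the data were seen, gave 1, Npy. That fit tested 9389 genes and called 156 (126 higher), or 1.66%, against 0 in the comparison as reported. The cause was not tested. Over all genes, the count was 1 with at least 10 reads in every sample, 20 without the mean-variance trend and 51 with the replicate block and at least 10 reads together, and 0 of these were receptors. Receptors whose groups did not overlap numbered 4 of 8, beside 42.2% of all genes tested. They numbered 5 under quantile normalization and 5 under median-ratio scaling. Their number was from 5 to 7 with 1 sample left out, where fewer values have to be apart, and 0 when a gap of 1.2-fold was required. The share over all genes was not worked out under these alternatives, so their counts cannot be read as high or low. Leaving out a sample reversed the log2 fold change of Npy5r (0.10 without WT replicate 1 and 0.03 without KI replicate 1, range -0.16 to 0.10) and of Sstr4 (0.018 without KI replicate 2, range -0.073 to 0.018), and the other 101 of 104 receptor values kept direction and side of the threshold. Depth limits Oprk1 and Oprm1, with at most 17 reads in each sample by the exon lengths used or 34 by the longer length of Oprk1, and WT replicate 2 is the shallowest library.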
